A study of Drosophila melanogaster with 3 samples.

Results

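The Antennapedia complex of Drosophila melanogaster holds the homeotic genes lab, pb, Dfd, Scr and Antp, and the data described here are the sites along these 5 genes at which the transcription factor Zelda (ZLD) was found by ChIP-seq in early embryos. The sites were chosen by position alone. They are the deposited ZLD peaks whose interval midpoint lay in 1 of 3 windows of chromosome 3R on the dm3 assembly, chr3R:2485000-2560000 around lab and pb, chr3R:2600000-2680000 around Dfd and Scr, and chr3R:2700000-2830000 around Antp. These windows held 175 peaks over the 3 peak lists, and joining midpoints within 150 bp gave 76 sites, of 16200 sites in the whole genome. Of the 76 sites, 10 lay in the window of lab and pb, 25 in that of Dfd and Scr and 41 in that of Antp.

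The embryos were wild type, of the Oregon R strain, and were pooled whole after sorting by hand under a microscope, so a value averages over all nuclei of many embryos. The first pool was labelled as mitotic cycles 8 to 9, the next as cycle 13 with the beginning of cycle 14, and the last as late cycle 14. The first 2 pools are called cycle 8 and cycle 13. Chromatin amounts were 3.7, 6.6 and 6 µg in that order. All 3 immunoprecipitations used the same rabbit antibody against ZLD, from which the molecules that recognize the zinc fingers had been removed. There was 1 library per stage and no replicate, so a difference between stages cannot be told apart from a difference between libraries, and all changes are given as sizes with no test.

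Homeotic genes encode homeodomain transcription factors that give the segments along the head-to-tail axis their identity, and in flies those of the head and front thorax stand together in the Antennapedia complex. ZLD is a zinc-finger protein supplied by the mother that binds CAGGTAG-like motifs and is needed for the first wave of zygotic transcription. Homeotic genes are patterned later than the first zygotic genes, around the time the embryo forms cells. Between the windows lie genes of other early functions, zen and bcd between pb and Dfd, and ftz between Scr and Antp, which are not part of the 76 sites.

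The libraries held 13496488 mapped reads at cycle 8, then 18870755 at cycle 13, then 17481411 at late cycle 14. Distinct combinations of start and strand made up 23.4%, 50.9% and 41.0% of these reads, so the cycle 8 library held the most copies. At the 76 sites the shares were 18.5%, 25.9% and 22.5%, and the part of copies in the values was not tested other than by counts of 1 read per position and strand. Such a count cannot exceed 300 at a site, so at strong sites it can hide a rise. The value at a site, called coverage, is the number of reads, each extended to 150 bp, that lie over the centre of the site, scaled to 10000000 reads per library, and where 3 values follow each other they run from the earliest stage to the latest. The median coverage of the chromosome arms was 4.45, 3.71 and 3.43. All intervals are exact, at 95%, were computed from reads with copies kept, and cover counting error only. Since copies need not be separate molecules, the intervals can be too narrow even for that error.

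ZLD sites were dense in the windows of Dfd, Scr and Antp, and coverage of the 76 sites was mostly higher at the later stages. The windows held 2.67 sites per 10 kb, against 1.31 over the chromosome arms. By window this was 1.33 at lab and pb, 3.125 at Dfd and Scr and 3.15 at Antp. It was 4.17 in the Bithorax complex from Ubx to Abd-B, 3.0 in the gap with zen and bcd and 6.0 in the gap with ftz. Median coverage of the 76 sites was 63.7 at cycle 8, then 129.8 at cycle 13, then 181.6 at late cycle 14, while over all 16200 sites it was 87.4, 85.3 and 75.5. Summed over the 76 sites, coverage was 12631, 25762 and 30145. Sites with a coverage of 500 or more numbered 7, 17 and 17 of the 76, where 1339, 1795 and 1836 of the 16200 sites reached it. The median of the complex thus lay below that of all sites at cycle 8 and above it from cycle 13.

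**Figure D1:**
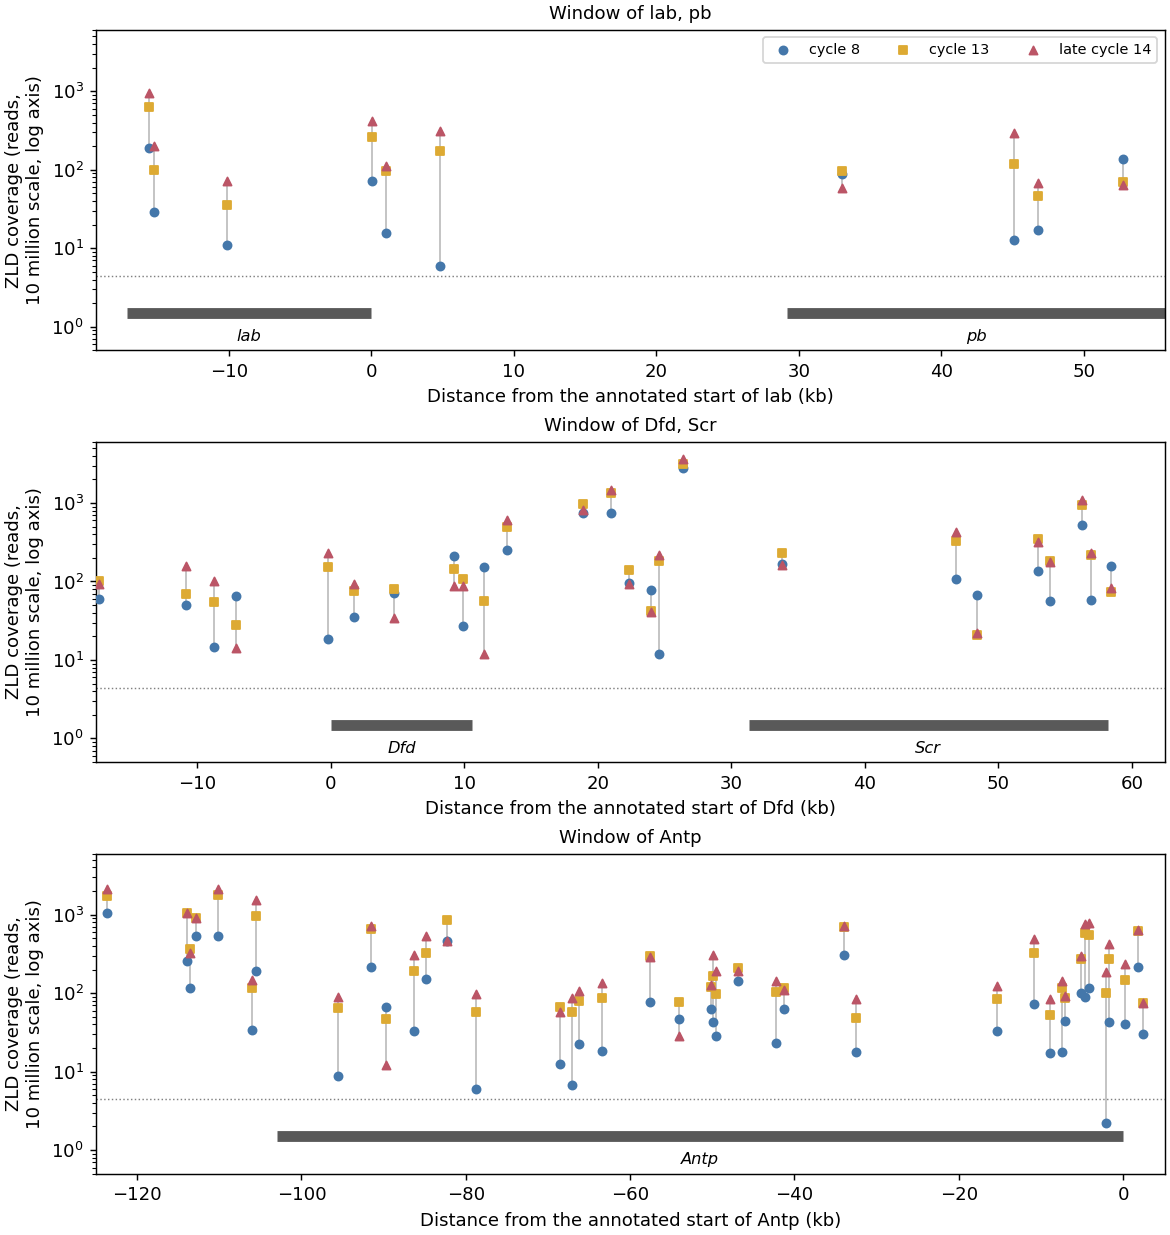
ZLD coverage (reads over the site centre at a scale of 10000000 reads, log axis) of each of the 76 sites at cycle 8 (circles), cycle 13 (squares) and late cycle 14 (triangles), by distance in kb from the annotated start of lab, Dfd or Antp, with distance counted toward higher positions on 3R. Grey bars are gene spans, and the dotted line is the median of the arms at cycle 8, 4.45. Most triangles stand above the circle of the same site, and the tallest site stands between Dfd and Scr.

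In coverage at late cycle 14 over cycle 8, 54 of the 76 sites (71.1%) were higher by 2-fold or more, where 34.3% of all sites were. Another 7 (9.21%) were lower by this fold, where 39.8% of all sites were. The remaining 15 of the 76 stayed within 2-fold, where 4202 of the 16200 sites did (74.1% of all sites were past it in either direction). With 1 read per position and strand, 45 sites were higher and 5 lower, where 30.2% and 36.1% of all sites were. The median log2 ratio was 1.86 in the windows and -0.20 over all sites. Most of this step lay between cycles 8 and 13. At cycle 13 over cycle 8, 49 sites were higher and 4 lower by 2-fold or more, where 32.1% and 26.4% of all sites were (58.6% in either direction), and the median log2 ratio was 1.63, against 0.18 over all sites. At late cycle 14 over cycle 13 only 4 were higher and 4 lower, where 4.1% and 25.8% of all sites were (29.9% in either direction), and the medians were 0.23 in the windows and -0.29 over all sites. In this last step the share that was lower was smaller than that of all sites. The number that was higher depends on the scaling, since the median of ratios gave 20 sites (26.3%), where 14.7% of all sites were higher.

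The counts differed between the windows. At late cycle 14 over cycle 8, 34 of 41 sites at Antp were higher by 2-fold or more and 1 was lower, and 8 of 10 at lab and pb were higher and 1 lower. At Dfd and Scr 12 of 25 were higher and 5 lower. The median log2 ratios were 2.13 at Antp, 2.64 at lab and pb and 0.98 at Dfd and Scr. The stretch from Ubx to Abd-B (chr3R:12482097-12769991), which holds the homeotic genes of the trunk and abdomen in the Bithorax complex, had 120 sites, of which 71 were higher and 15 lower, with a median of 1.48. It too lay above the median of all sites. The 12 sites between the windows of pb and Dfd, where zen and bcd lie, had 7 higher and 2 lower, and the 12 around ftz had 4 higher and 1 lower.

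**Figure D2:**
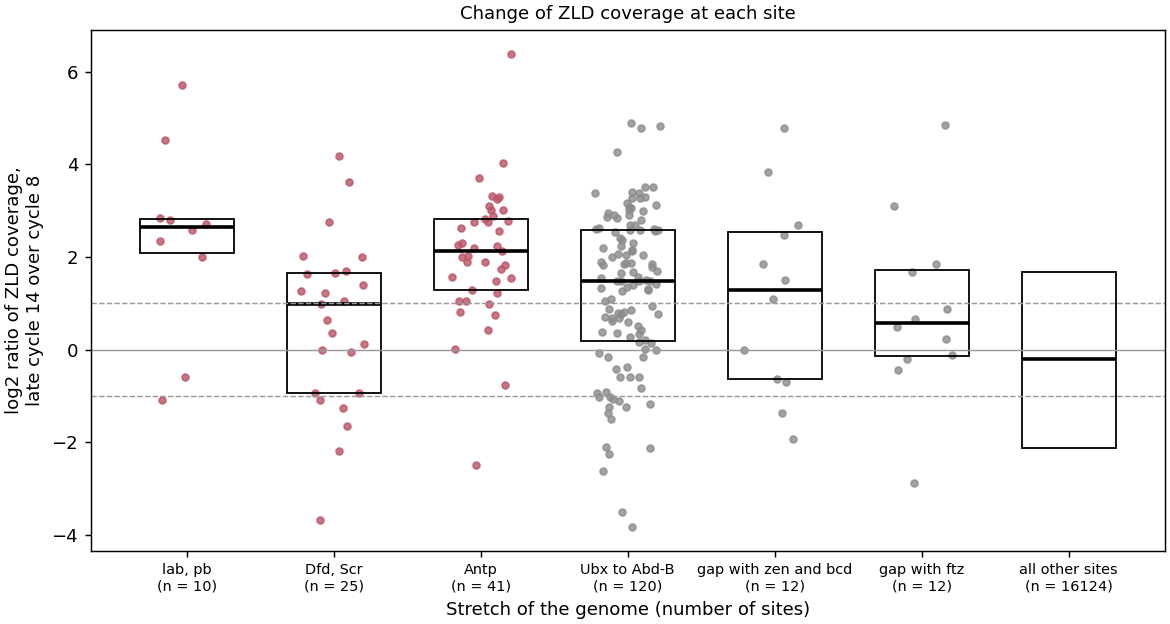
log2 ratio of ZLD coverage, late cycle 14 over cycle 8, of each site (points) in the 3 windows, the stretch from Ubx to Abd-B and the gaps with zen and bcd and with ftz. Boxes show quartiles and median, also for the 16124 sites outside the windows, which include the 3 grey groups, and dashed lines mark a 2-fold change. The medians of lab and pb (2.64) and Antp (2.13) lie above the upper dashed line, and that of the sites outside the windows (-0.21) lies below 0.

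In the deposited lists, 37 of the 76 sites (48.7%) were called at every stage, against 31.8% of all sites. The cycle 8 list held 43 of the 76 (56.6%), the cycle 13 list 64 (84.2%) and the late cycle 14 list 68 (89.5%), where these lists held 70.2%, 64.6% and 58.2% of all sites. The most frequent other pattern was a site first called at cycle 13 and kept at late cycle 14, with 23 sites, where 2784 of the 16200 had it, and 8 were called only at late cycle 14, where 1448 of the 16200 were. Sites called only at cycle 8 numbered 4, with 3 of these at Dfd and Scr, where 4240 of the 16200 were. With a coverage of at least 2 times the median of the arms at every stage in place of a called peak, 94.7% of the 76 sites passed throughout, and 92.5% of all sites, a bar so low that nearly all sites pass it and that does not show binding at an uncalled site.

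Which sites were called at a stage bears on these counts, since a site absent from the cycle 8 list was called for its reads at a later stage. Of the 43 sites in the cycle 8 list, 22 (51.2%) were higher by 2-fold or more at late cycle 14 and 7 lower, where 14.9% of the cycle 8 sites of the genome were higher and 55.9% lower. Of the 37 sites called at every stage, 22 were higher and 2 lower, where 32.3% and 16.6% of such sites of the genome were. By window, 14 of 19 such sites at Antp were higher and none lower, and 3 of 5 at lab and pb were higher and 1 lower. At Dfd and Scr 5 of 13 (38.5%) were higher, close to the share of the genome, and 1 was lower. Of the 18 sites of the cycle 8 list at Dfd and Scr, 5 were higher and 5 lower. Of the 33 sites absent from the cycle 8 list, 32 were higher and none lower, where 80.1% and 1.62% of such sites were.

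**Figure D3:**
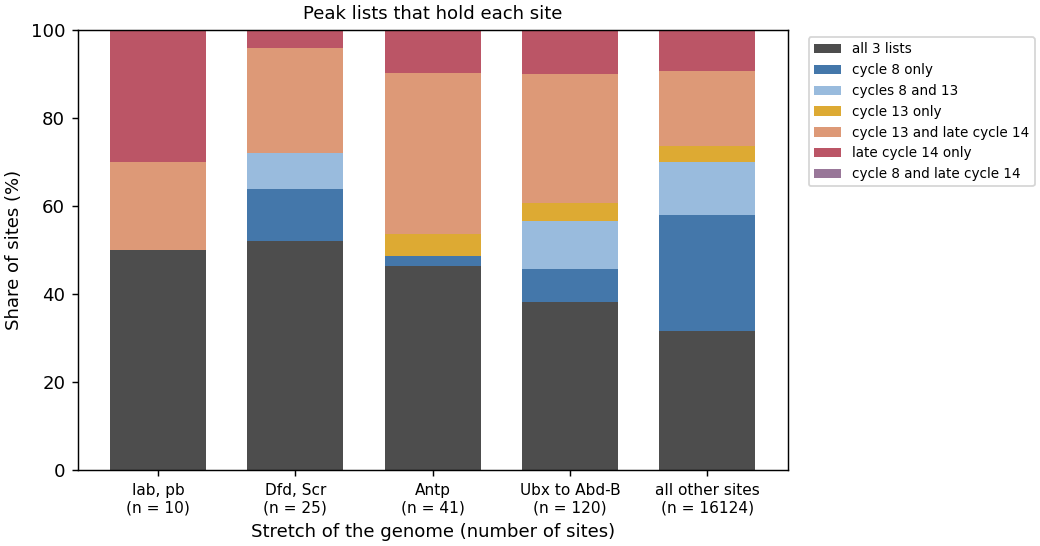
Share of sites (%) by the deposited peak lists that hold them, for the 3 windows, the stretch from Ubx to Abd-B and the sites outside the windows. Sites in the cycle 8 list alone (dark blue) are absent at lab and pb, 3 of 25 at Dfd and Scr and 1 of 41 at Antp, and make up a wide band outside the windows.

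The lab gene, which acts in the intercalary segment of the head, is the first gene of the complex (chr3R:2487139-2504312, minus strand). Its 6 sites were all higher at late cycle 14 over cycle 8 by 2-fold or more, where 34.3% of all sites were. The strongest, at 2488682 and labelled CDS in the study's peak tables, had a coverage of 187 at cycle 8, then 636 at cycle 13, then 956 at late cycle 14. Its log2 ratio of late cycle 14 to cycle 8 was 2.35 (2.16 to 2.55), or 1.04 with 1 read per position and strand, and the peak was in every list. At the start of lab, 18 bp before it, the site at 2504330 had 71.1, 258 and 424. Its log2 ratio was 2.58 (2.27 to 2.90), or 2.07 with 1 read per position and strand. The site at 2509153, 4841 bp upstream of the start, had 5.93 (2.56 to 11.7), 171 and 309. The cycle 8 value at 2509153 came from 8 reads and lay close to the median of the arms. Its log2 ratio of 5.70 (4.71 to 6.92) dropped to 3.77 with reads counted over 300 bp and to 4.48 with 1 read per position and strand. The 3 remaining sites, at 2489053, 2494164 and 2505329, stood between 72.6 and 201.9 in late cycle 14 embryos, against 11.1 to 28.9 in cycle 8 embryos. Of the 6 sites, those at 2489053, 2494164 and 2509153 were absent from the cycle 8 list, and so were called for their reads at a later stage. Of such sites of the genome, 80.1% were higher by 2-fold or more.

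The pb gene, which with Scr specifies the adult mouthparts (2533517-2567785, minus strand), had 4 sites inside the window, and they did not move together. At 2549446 coverage was 12.6, 118 and 291, a log2 ratio of 4.53 (3.84 to 5.32), or 5.14 with the background subtracted. Further toward the start, at 2557095, it was 136, 69.9 and 64.6, a log2 ratio of -1.08 (-1.43 to -0.73), and this was the only site of the window that was lower by 2-fold or more. That fold was missed under 4 alternatives, with log2 ratios of -0.88 (median of ratios), -0.83 (reads outside sites), -0.65 (1 read per position and strand) and -0.97 (reads over 300 bp). The site at 2537331 had 88.9, 95.9 and 58.9, within 2-fold throughout, and the site at 2551137 had 17.0, 46.6 and 68.6. The annotated start of pb, at 2567785, lies 7785 bp beyond the edge of the window. A site outside the 76, at 2567950 and 165 bp before that start, had 29.6, 78.4 and 106, a log2 ratio of 1.84. The sites at 2549446, 2551137 and 2567950 were absent from the cycle 8 list, and so were called for their reads at a later stage. Of such sites of the genome, 80.1% were higher by 2-fold or more.

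The Dfd gene, which specifies the maxillary and mandibular segments (2617557-2628153, plus strand), had higher coverage at its start and both directions near its end. The site 182 bp before the start, at 2617375, had 18.5, 153 and 228, with a log2 ratio of 3.62 (3.04 to 4.26), and was called from cycle 13 on. Near the end of the gene, at 2626769, coverage was 210, 145 and 88.7, a log2 ratio of -1.25 (-1.54 to -0.96), whereas its neighbour at 2627418 had 27.4, 108 and 88.7 and a log2 ratio of 1.69. Beyond the end by 862 bp, at 2629015, it was 153, 56.2 and 12.0, a log2 ratio of -3.67 (-4.39 to -3.02), the largest fall of the 76 sites and called at cycle 8 alone. This ratio was -2.55 with 1 read per position and strand and -2.64 over 300 bp, and the one at 2626769 was -0.79 with 1 read per position and strand. The next site onward, at 2630719 and labelled intergenic, had 252, 500 and 606, a log2 ratio of 1.27 (0.40 when 1 read per position and strand was kept), so sites 1704 bp apart changed in opposite directions. The 5 sites upstream of Dfd had 3 higher and 1 lower, the lower one at 2610423 with 65.2, 27.6 and 14.3. The 3 higher ones, among them 2617375, and the site at 2627418 were absent from the cycle 8 list. They were thus called for their reads at a later stage, and of such sites of the genome 80.1% were higher by 2-fold or more.

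Between Dfd and Scr stood the highest coverage of the 76 sites. In the RefSeq gene order of the Release 6 assembly this stretch holds 9 genes, none of them protein-coding. The gaps between the windows, outside the 76, held higher values, with maxima of 6679, 4199 and 4341 around zen and bcd and of 3934, 3992 and 3626 around ftz. The site at 2643928, 4913 bp beyond the end of Scr and labelled intergenic, had a coverage of 2779 (2691 to 2870) at cycle 8, then 3146 (3066 to 3227) at cycle 13, then 3591 (3502 to 3681) at late cycle 14. It ranked 144, 110 and 110 of the 16200 sites, and its log2 ratio of 0.37 was small beside the median of the windows. At 2638519 coverage was 745, 1325 and 1468 (log2 ratio 0.98), and at 2636456 it was 742, 973 and 811 (log2 ratio 0.13). With 1 read per position and strand the log2 ratios of these 3 sites were -1.08, -0.37 and -0.54. That count cannot exceed 300, and it was 278, 300 and 299 at 2643928. It was 167, 297 and 294 at 2638519, and 176, 290 and 275 at 2636456. Near its limit the count cannot show a further rise, so no direction of change is drawn from these ratios. Scaling by the median of ratios took the log2 ratio at 2638519 to 1.17. A weaker neighbour at 2642121, 1807 bp from the tallest site, had 11.9, 183 and 216, a log2 ratio of 4.19. It was absent from the cycle 8 list, and of such sites of the genome 80.1% were higher by 2-fold or more.

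**Figure D4:**
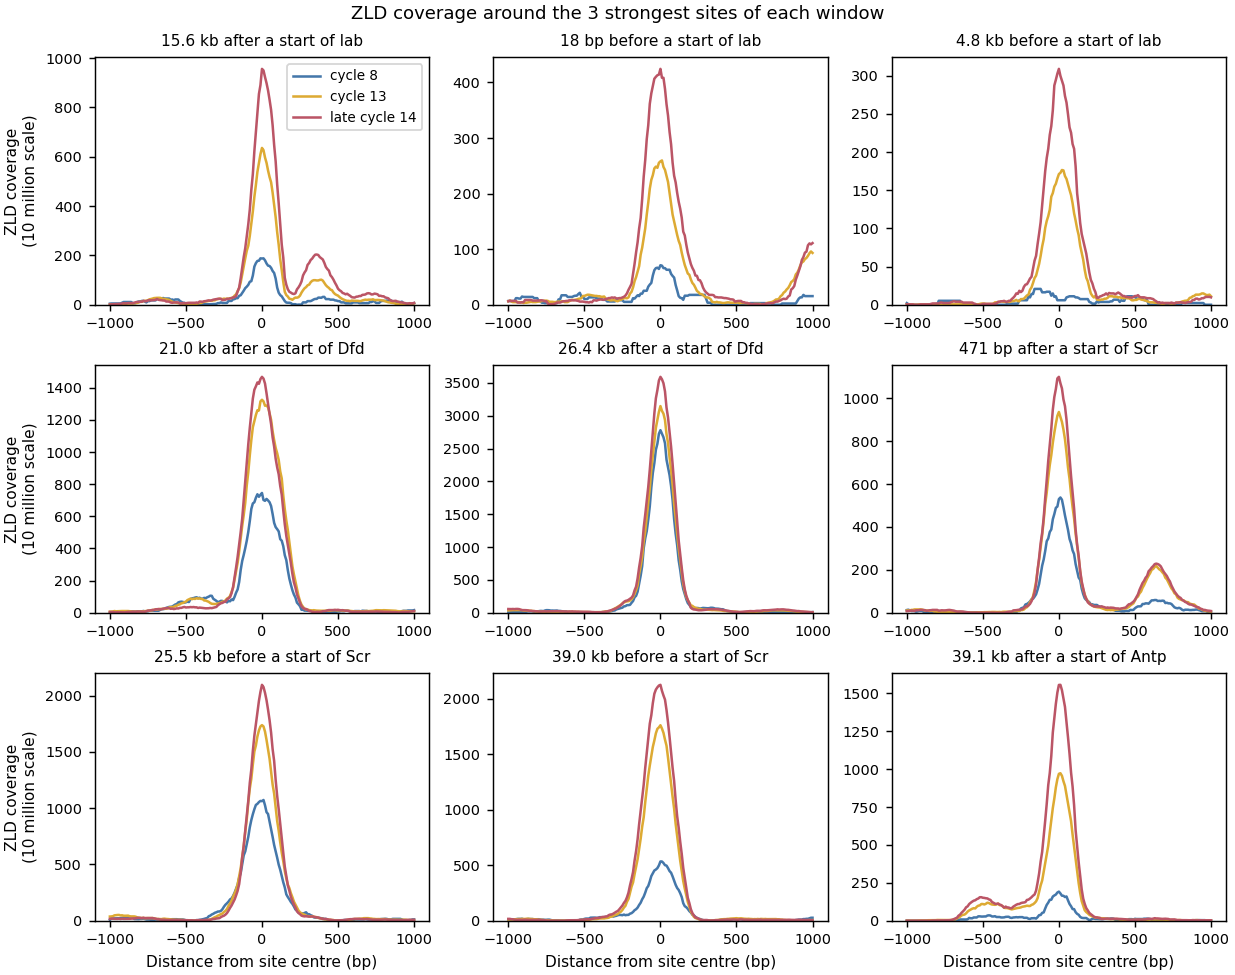
ZLD coverage at a scale of 10000000 reads against distance in bp from the site centre, for the 3 strongest sites of each window (rows), with 1 line per stage, each panel with its own vertical axis from 0. The middle panel of the middle row shows 3 curves of like height (2779, 3146 and 3591 at the centre), whereas in the right panel of the top row the cycle 8 curve has no peak at the centre (5.93).

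The Scr gene, which specifies the labial segment and the first thoracic segment (2648841-2675754, minus strand), has 2 annotated starts in the tables used, at 2674297 and 2675754, and the sites beside them changed differently. The strongest site of the gene, at 2673826 and labelled UTR5, had 530, 936 and 1099, a log2 ratio of 1.05 (0.93 to 1.18). With 1 read kept per position and strand this ratio turned to -0.16, but such a count cannot exceed 300 at any site. The site 174 bp before the inner start, at 2674471, had 57.8, 218 and 232 (log2 ratio 2.01), and the site 203 bp before the outer start, at 2675957, had 157, 73.7 and 82.4 (log2 ratio -0.93). The outer site depends on how its broad peak is read, since its log2 ratio was -0.32 over 300 bp and -0.24 at the mean of the joined midpoints. Inside the gene, the site at 2665974 was called at cycle 8 alone and had 68.2, 20.7 and 21.7, while its neighbour at 2664363 had 107, 331 and 432. The site at 2674471 was absent from the cycle 8 list, and so was called for its reads at a later stage. Of such sites of the genome, 80.1% were higher by 2-fold or more.

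The Antp gene, which specifies the second thoracic segment and spans most of its window (2721974-2824950, minus strand), had 7 sites beyond its 3′ end, 31 inside and 3 upstream. The 3 strongest were all beyond the 3′ end, toward ftz, and were labelled intergenic. At 2701300 coverage was 1062, 1737 and 2095 (log2 ratio 0.98). At 2714752 it was 534, 1763 and 2127 (log2 ratio 1.99), and at 2719412, 2562 bp beyond the gene, it was 192, 969 and 1555 (log2 ratio 3.02). With 1 read per position and strand these log2 ratios became -0.63, -0.071 and 1.08. That count was near its limit of 300 at 1 of the 76 sites in the cycle 8 library, 15 in the cycle 13 library and 14 in the last.

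Both annotated starts of Antp had a site first called at cycle 13. Beside the start at 2824950, the site at 2825179 had 40.0, 148 and 236, a log2 ratio of 2.56. Beside the start at 2758562, the site at 2758673 had 22.2, 79.5 and 106, a log2 ratio of 2.25 (1.69 to 2.86). Just inside the gene, 2077 bp from the first of these starts, the site at 2822873 had the largest rise of the 76, with 2.22 (0.46 to 6.50), 100 and 185. Its cycle 8 value was 3 reads from 1 position, below the median of the arms. Its log2 ratio of 6.38 (4.82 to 8.67) dropped to 4.03 over 300 bp and to 4.36 with 1 read per position and strand. A pair of intronic sites nearby, at 2820356 and 2820833, had 88.2, 588 and 757, and 116, 556 and 781. The sites at 2825179, 2758673 and 2822873 were absent from the cycle 8 list, and so were called for their reads at a later stage. Of such sites of the genome, 80.1% were higher by 2-fold or more.

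Most of Antp is intron, and few of the sites inside it were strong at cycle 8. Across the 31 sites inside the gene, 26 were higher and 1 lower by 2-fold or more, where 34.3% and 39.8% of all sites were. Their median log2 ratio was 2.25, and their summed coverage was 2350, 6881 and 8182. Of the 31, 12 were called at every stage. All others but the lower one were absent from the cycle 8 list, and so were called for their reads at a later stage. Of such sites of the genome, 80.1% were higher. The lower one, at 2735274 and called at cycle 8 alone, had 67.4, 47.2 and 12.0, a log2 ratio of -2.49. The strongest inside the gene at cycle 8, at 2742689, had 459, 863 and 462. Its cycle 13 value stood above both other stages, and its log2 ratio of late cycle 14 to cycle 8 was 0.01. Away from the sites, at positions over 500 bp from any centre, mean coverage of the Antp window was 6.89, 7.26 and 7.60, so the background between the sites moved little beside the sites.

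At 56 of the 76 sites (73.7%) the cycle 13 value was between those of the earlier and the later stage, where this held at 77.9% of all sites. Only 4 sites were higher by 2-fold or more at late cycle 14 over cycle 13, and they were 2489053 and 2494164 in lab, 2549446 in pb and 2606740 upstream of Dfd, with log2 ratios of 1.01, 1.03, 1.30 and 1.19. The 4 that were lower were 2622308 in Dfd, 2629015 beyond Dfd, and 2735274 and 2770944 in Antp, with log2 ratios of -1.25, -2.23, -1.97 and -1.46. All of these but 2549446 and 2629015 were named after their values were seen. No site beyond the 3′ end of Antp was among them.

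Nearby sites often changed by different amounts. Of 29 adjacent pairs in the windows with centres 500 to 2000 bp apart, 17 (58.6%) differed by 2-fold or more in their change from cycle 8 to late cycle 14, near the 60.6% of 4756 such pairs on all arms. In 6 of the 29 pairs (20.7%) the sites changed in opposite directions by 2-fold or more each, against 408 of the 4756 (8.58%), and 4 of these 6, some of which share a site, were within or beside Dfd. The others were the pair in Scr at 2664363 and 2665974 and the pair in Antp at 2733413 and 2735274, where the first had 216, 665 and 719. With 1 read per position and strand, the log2 ratios at 2626769, 2630719 and 2733413 were -0.79, 0.40 and 0.89. The pairs of 2626769 with 2627418, 2630719 with 2629015 and 2733413 with 2735274 then lost this call, and the other pairs kept it. The share over all arms was not computed with that count, which cannot exceed 300 at a site.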

How the data were processed

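ZLD ChIP-seq was analysed in 3 libraries, 1 per stage, grouped by their labels. Per the labels, the authors mapped reads with Bowtie 0.12.5 to dm3, and they called peaks in each library separately with Grizzly Peak. Each deposited list holds peak intervals with heights in units of coverage signal. Each line of a deposited read file stands for 1 mapped read of 25 bp, with its position, its strand and a score that was not used.

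Coverage was computed with numpy 2.4.6, scipy 1.17.1 and pandas 2.3.3 in Python 3.11.15 from every read, with copies kept, extended to 150 bp and scaled to 10000000. Sites were centred on the maximum of pooled coverage within the joined midpoints widened by 75 bp. For log2 ratios a floor of 3 reads was used, which equals a coverage of 2.22, 1.59 and 1.72 by stage. Coverage carries exact Poisson intervals and ratios carry exact conditional binomial intervals, at 95%. The functions were tested on simulated data.

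Sites described by rule, 19 in all, were the 3 of highest pooled coverage in each window, the 3 largest rises and falls from cycle 8 to late cycle 14 among the 66 sites whose higher stage reached the genome-wide median of that stage, and every site from 500 bp before to 150 bp after an annotated start. Other sites were named after their values were seen. Windows, members and lists were chosen with earlier results of these data known. Gene positions, starts and peak labels on dm3 come from the parts of the study's supplementary tables that were used, in which 18 of the 76 sites had a label within 50 bp. Strands are textbook knowledge. Motifs, sequences and control libraries were not analysed here. Alternatives covered joining distance, scaling, copies, the width read, the centre, the floor, the fold and the lists.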

Additional observations from a re-analysis of the deposited data

How the results depend on the processing

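With 1 library per stage no library could be left out. No paired analysis was possible because each stage had a single library. Over the other scalings, read widths, centres and copy rules with all sites kept, the sites higher by 2-fold or more at late cycle 14 over cycle 8 ran from 45 to 57 of 76, against 30.2% to 37.7% of all sites, and the median log2 ratio ran from 1.42 to 2.11 in the windows and from -0.27 to 0.05 over all sites. Scaling by the median of ratios or by reads outside sites moved every log2 ratio of late cycle 14 to cycle 8 up by about the same step, which took the median of all sites from -0.20 to 0.00 and 0.05. Keeping 1 read per position and strand gave the lowest count, 45. It turned the log2 ratios at Scr 2673826 and Antp 2714752 to -0.16 and -0.071, and those at 2638519, 2643928 and 2701300 to -0.37, -1.08 and -0.63. Reads kept in this way cannot exceed 300 at a site, and at these sites they numbered 281 to 300 at late cycle 14. A full rise could not show there, and the part of copies in these ratios was not tested. Joining midpoints within 50 bp gave 35.3% of sites in all 3 lists. The share of all sites was not computed at that distance, so the difference from all sites was not checked there. Coverage in place of a called peak gave 94.7%, against 92.5% of all sites. Dropping peaks below the median height of the cycle 8 list left 49 sites. The 37 sites in all 3 lists gave 22 higher (59.5%) and 2 lower at late cycle 14 over cycle 8. Of such sites of the genome, 32.3% and 16.6% were. At cycle 13 over cycle 8 they gave 19 higher and 1 lower, and at late cycle 14 over cycle 13 they gave 0 and 0. For these later comparisons the shares of such sites of the genome were not computed. Sites of the cycle 8 list were tried only after seeing the data. For the 3 comparisons in the same order they gave 22, 19 and 0 higher and 7, 4 and 3 lower. In the first comparison, 14.9% of the cycle 8 sites of the genome were higher and 55.9% lower. A 1.5-fold threshold gave 11 lower at late cycle 14 over cycle 8, and 22 higher and 8 lower at late cycle 14 over cycle 13. The shares of all sites were not computed at that threshold. The 4 sites higher at late cycle 14 over cycle 13 became 20 with the median of ratios and 1 with 1 read per position. They became 2 each over 300 bp and at the joined midpoints. In that order, 14.7%, 1.69%, 2.98% and 4.14% of all sites were higher. The count in the windows thus rests on values near 2-fold, and the cause was not tested. Depth limits the lowest cycle 8 values, where 4 of the 76 sites had under 10 reads.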
